A study of Mus musculus with 11 samples.

Results

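The 30 genes described here make fatty acids and cholesterol in the liver. They were taken by name, from the array's gene names or the current symbol of each probe's accession, and not by a threshold on their values. The list was drawn up with earlier results of these data known. Of these, 14 belong to fatty acid synthesis and 16 to sterol synthesis. The array held 57 probes for them, 54 of which were measured well enough to test, and all 30 genes were among the 15789 genes tested. Livers of newborn mice of the hybrid 129 x C57BL/6 background were compared. Mutant mice carried AFP-Cre, in which the alpha-fetoprotein promoter drives the Cre recombinase, together with Rosa26-lsl-NICD, an allele that produces the Notch intracellular domain (the active, cut form of a Notch receptor) once Cre has removed a stop cassette. Control mice carried the Rosa26-lsl-NICD allele without Cre, and no group carried Cre alone. Livers were taken at birth (day 0) or at the age of 2 days (day 2), which gave 2 control arrays and 3 mutant arrays at day 0 and 3 arrays of each genotype at day 2. The labels name separate samples but no pooling or litter, so p-values measure the spread between these samples.

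Fatty acids are built in the cytosol from citrate. Citrate is split to acetyl-CoA, acetyl-CoA is carboxylated, and fatty acid synthase extends the chain with NADPH, after which elongases and desaturases shape it and acyltransferases join it to glycerol. Sterols start from the same acetyl-CoA and pass through mevalonate, isoprenoid units and squalene to lanosterol and then cholesterol. Both arms are classical targets of the SREBP transcription factors, which are held in the endoplasmic reticulum by INSIG proteins when sterols are plentiful and escorted by SCAP to be cut free when they are scarce. In liver, the fatty acid arm is also known to follow insulin, carbohydrate and feeding.

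Each level below is the log2 of a probe's background-subtracted Cy3 brightness relative to the 75th percentile of its array, so 0 is a probe as bright as that percentile and levels of different genes are not comparable. The probe read for each member was well above background on all 11 arrays, and none was saturated. Between 63.3% and 68.6% of probes were well above background on an array. Arrays of a group correlated at 0.952 to 0.991, the lowest values being those of mutant day 0 replicate 3. Nrarp, a direct Notch target, was 13.8-fold higher in mutants over both days and Sox9, a bile duct factor that Notch controls, 19.6-fold higher, with adjusted p = 1.03e-05 and 4.78e-06 by limma. A further gene set as a check of the genotype labels, Notch1, did not pass. It differed by 0.20 log2 units over both days, -0.02 at day 0 and 0.41 at day 2. Replicate numbers 1 to 3 were also the slides, and the position on a slide was the same for all arrays of a group, so position and group cannot be told apart. From Xist and Y-linked genes both day 0 controls were male and all 3 day 0 mutants female, so sex and genotype cannot be told apart at day 0, whereas each day 2 group held 2 females and 1 male.

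**Figure D1:**
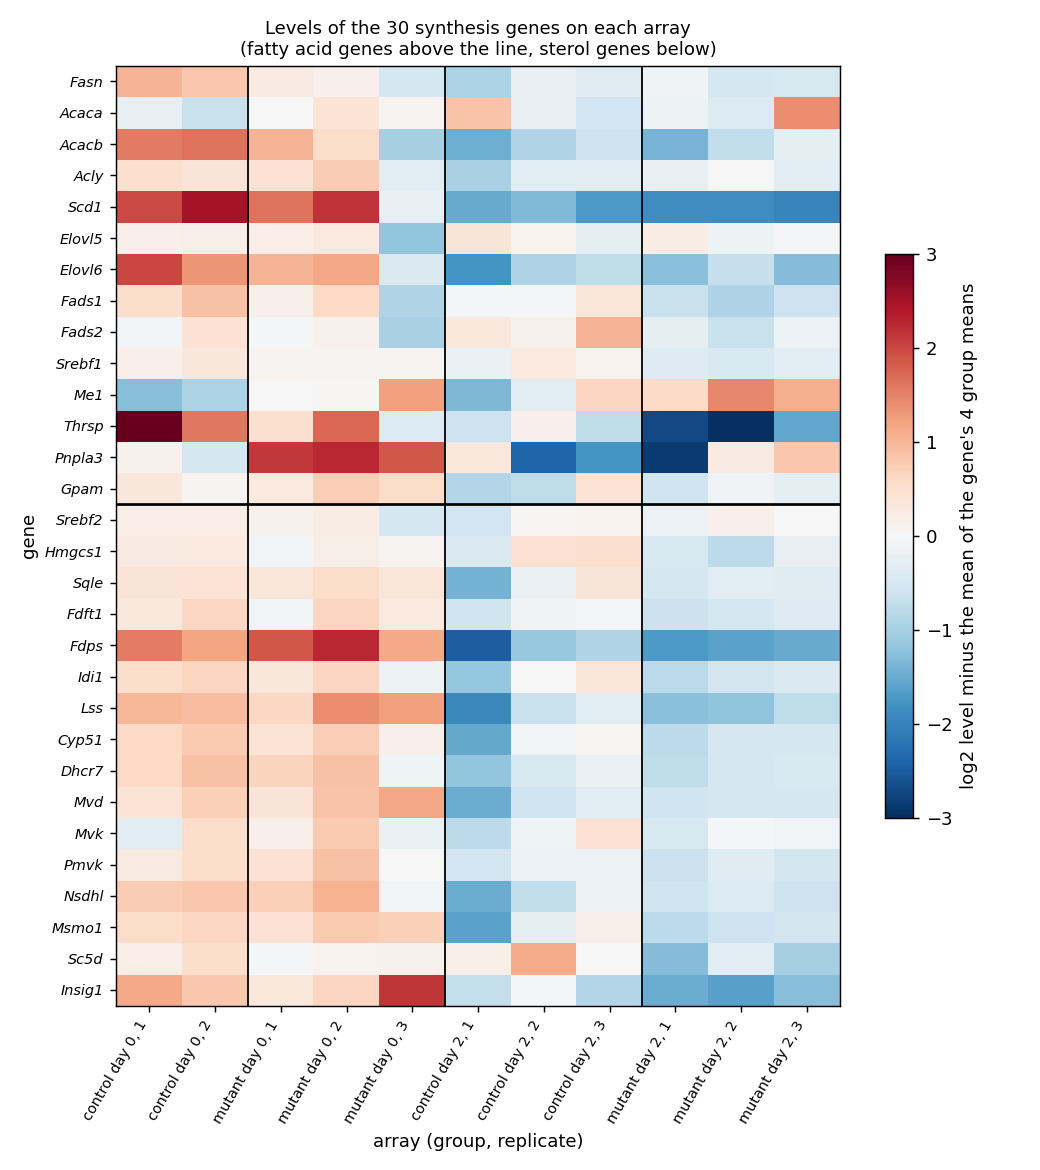
Each row is a gene and each column an array, and colour gives the log2 level minus the mean of that gene's 4 group means, with the scale ending at 3 log2 units on either side. The columns of day 0, on the left, are mostly red and those of day 2 mostly blue in both genotypes, with 26 of 30 genes lower at day 2 in each genotype.

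The comparison of day 2 with day 0 asks how the synthesis genes changed after birth, first in control livers. Fasn, Acacb, Scd1, Elovl6 and Thrsp of the fatty acid arm fell, by 2.7-fold to 13.6-fold, and Fdps, Lss, Dhcr7, Mvd and Nsdhl of the sterol arm fell, by 2.54-fold to 7.29-fold. No member rose by limma, and 0 were higher at an unadjusted p under 0.05. These 10 of 30 members passed an adjusted p of 0.05 by limma with Benjamini-Hochberg adjustment over all genes, against 5.71% of all genes that fell and 5.52% that rose. The median difference was -0.81 for the 14 fatty acid members and -1.01 for the 16 sterol members, beside -0.02 for all genes. In 20 of 30 members, 7 of fatty acid and 13 of sterol synthesis, every control array at day 2 was below both at day 0, against 27.9% of all genes.

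Scd1, the desaturase that makes oleate from stearate (probe at chr19:44448208-44448267, mm8), stood at 2.32 and 2.85 in day 0 controls and at -1.17, -0.98 and -1.39 in day 2 controls. The groups lay far apart, and the fall was 13.6-fold (-3.77 ± 0.57 SE on the log2 scale, adjusted p = 0.00603). Elovl6, the elongase that takes palmitate to stearate (chr3:129630352-129630411, mm8), was 4.08 and 3.41 at day 0 and 0.29, 1.17 and 1.31 at day 2. It fell 7.08-fold (-2.82 ± 0.50, adjusted p = 0.0102), again without overlap. Fasn, the fatty acid synthase itself, was 5.01 and 4.81 at day 0 and 3.04, 3.76 and 3.63 at day 2, a fall of 2.7-fold (-1.43 ± 0.29, adjusted p = 0.0181). Acacb, the carboxylase of the mitochondrial surface whose product restrains fatty acid oxidation, fell 6.01-fold, from 0.73 and 0.80 to -2.29, -1.73 and -1.46 (-2.59 ± 0.55, adjusted p = 0.0205). Thrsp, a small lipogenic protein induced by thyroid hormone and carbohydrate, was 0.79 and -0.73 at day 0 and -2.93, -2.18 and -3.08 at day 2. Its day 0 arrays differed more from each other than its day 2 arrays did, and the fall was 6.77-fold (-2.76 ± 0.72, adjusted p = 0.0398).

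The remaining 9 fatty acid members did not pass in controls. Acly, which splits citrate, was 1.61 and 1.51 at day 0 and 0.15, 0.78 and 0.79 at day 2, without overlap, at a difference of -0.98 (adjusted p = 0.0735). Srebf1, which encodes SREBP-1, was between 4.48 and 5.03 on all 5 control arrays (-0.18, adjusted p = 0.496). The desaturases Fads1 and Fads2 of polyunsaturated fatty acids differed by -0.62 and 0.31, and Elovl5, the elongase of the same pathway, by -0.10. Gpam, which starts glycerolipid synthesis, differed by -0.63, and Pnpla3, a lipid droplet protein, by -1.12 with arrays from -4.70 to -1.99 at day 2. Me1, the malic enzyme that supplies NADPH, was the member with the highest difference, 0.76, and did not pass. Acaca, the cytosolic acetyl-CoA carboxylase, was dim, and its 3 probes did not run the same way: the probe read differed by 0.46 and the others by -0.64 and -0.26, so no direction is given for it.

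In the sterol arm, Fdps, which makes farnesyl diphosphate (chr3:89180817-89180957, mm8), had the greatest fall of the 16 members in controls. It was 5.96 and 5.62 at day 0 and 1.97, 3.30 and 3.52 at day 2, a fall of 7.29-fold (-2.87 ± 0.45, adjusted p = 0.0069). Lss, which closes the rings of lanosterol (chr10:75996963-75997022, mm8), was 2.34 and 2.29 at day 0 and -0.58, 0.70 and 1.03 at day 2. It fell 3.81-fold (-1.93 ± 0.43, adjusted p = 0.0242). Nsdhl, an X-linked enzyme that removes methyl groups after lanosterol, fell 2.99-fold, from 1.5 and 1.54 to -0.75, -0.01 and 0.57. Mvd, which decarboxylates mevalonate diphosphate, fell 2.57-fold, from 0.72 and 1.03 to -1.17, -0.27 and -0.02. Dhcr7, which forms cholesterol from 7-dehydrocholesterol, fell 2.54-fold, from 4.53 and 4.82 to 2.75, 3.48 and 3.75. In all 5 of these genes day 2 replicate 1 was the lowest array and the groups did not overlap.

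Of the 11 sterol members that did not pass in controls, Fdft1, Sqle, Idi1, Cyp51, Pmvk, Msmo1, Srebf2 and Insig1 were also below both day 0 arrays on every day 2 array. Insig1, the anchor that keeps SREBP in the membrane and is itself an SREBP target, was 1.78 and 1.45 at day 0 and -0.07, 0.61 and -0.23 at day 2 (-1.52 ± 0.48, adjusted p = 0.0707). Msmo1, a methylsterol oxidase, was 4.99 and 5.06 at day 0 and 2.82, 4.15 and 4.61 at day 2 (-1.17 ± 0.42, adjusted p = 0.1). The differences of Cyp51, lanosterol demethylase, Idi1, isopentenyl diphosphate isomerase, and Sqle, squalene epoxidase, were -1.22, -0.85 and -0.81. Fdft1, squalene synthase, and Pmvk, phosphomevalonate kinase, differed by -0.71 and -0.72. Hmgcs1, which makes HMG-CoA, and Mvk, mevalonate kinase, differed by -0.10 and -0.28 and their groups overlapped. Sc5d, the sterol desaturase that acts just before Dhcr7, was the sterol member with a difference above 0, at 0.08, and its groups overlapped. Both probes of Idi1 are placed by the array's annotation on chromosome 2, whereas RefSeq places the gene on another chromosome, so their position is uncertain. Srebf2, which encodes SREBP-2, differed by -0.33 on the probe read and by 0.30 on another of its probes.

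**Figure D2:**
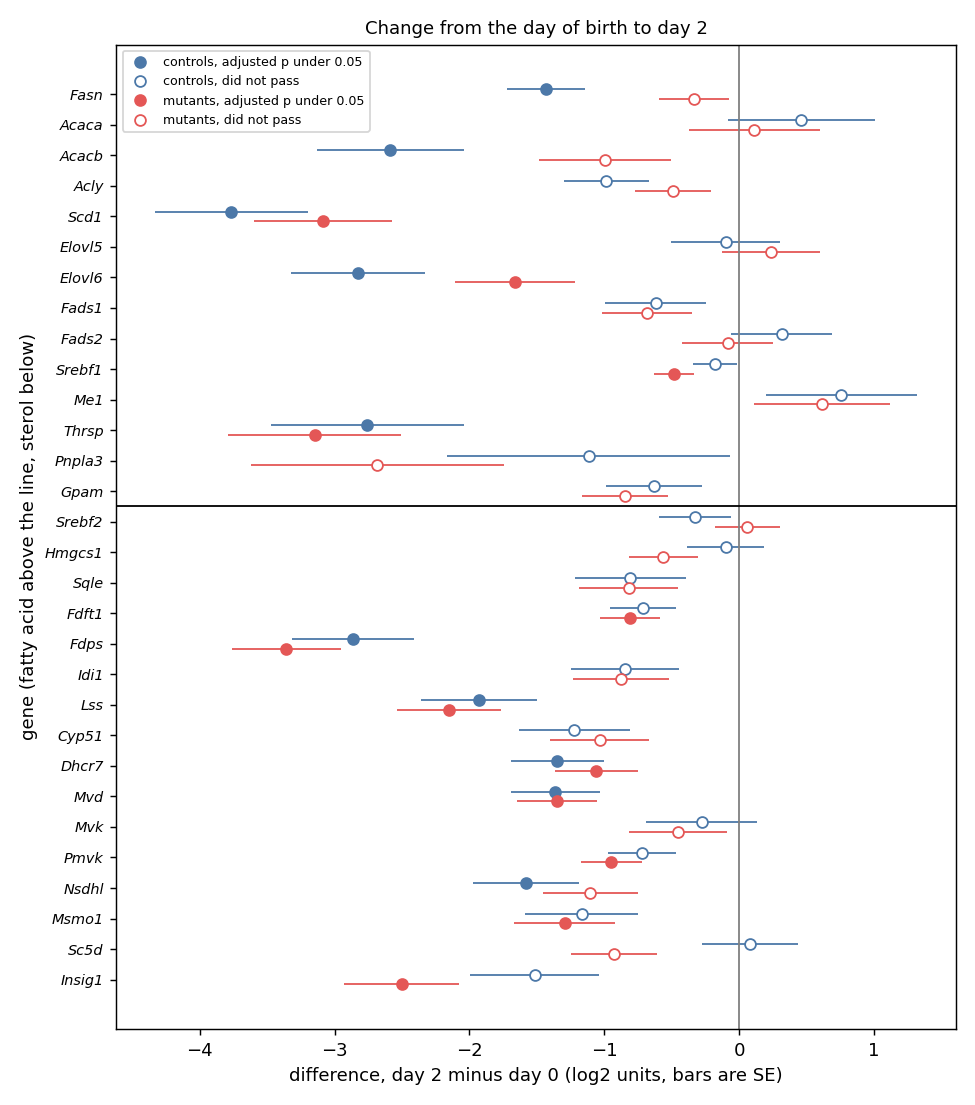
The difference between day 2 and day 0 is plotted for each gene on a log2 axis, in blue for controls and red for mutants, with bars of 1 SE and filled points for adjusted p under 0.05. Scd1, Elovl6, Thrsp, Fdps, Lss, Dhcr7 and Mvd are filled in both genotypes, and Fdps has the lowest sterol points, at -2.87 and -3.36.

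In mutant livers, 12 of 30 members fell from day 0 to day 2 by limma and none rose (0 were higher at an unadjusted p under 0.05), against 11.3% and 9.41% of all genes. Scd1, Elovl6, Srebf1 and Thrsp of the fatty acid arm fell, and so did Fdft1, Fdps, Lss, Dhcr7, Mvd, Pmvk, Msmo1 and Insig1 of the sterol arm. The medians were -0.59 for fatty acid members and -0.99 for sterol members, beside -0.00244 for all genes. Every day 2 array was below every day 0 array in 20 members, 6 of fatty acid and 14 of sterol synthesis, against 22.2% of all genes. Scd1, Elovl6, Thrsp, Fdps, Lss, Dhcr7 and Mvd fell in both genotypes, which is 70% of the 10 members that fell in controls and 58.3% of the 12 in mutants. No such share over all genes stands beside these values. Both comparisons draw on the same estimate of each gene's spread, so their calls are not independent.

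Fdps was 6.29, 6.70 and 5.57 in day 0 mutants and 2.72, 2.84 and 2.93 in day 2 mutants. The 10.2-fold fall (-3.36 ± 0.40, adjusted p = 0.00171) separated the groups by over 2 log2 units. Thrsp fell 8.87-fold, from -1.84, -0.59 and -2.72 to -5.02, -5.71 and -3.87 (-3.15 ± 0.64, adjusted p = 0.0114). Its probe was dim in day 2 mutants, with a mean of -4.87, so the size of the fall is less certain. The probe was still above background on all 11 arrays. Scd1 was 1.98, 2.52 and 0.09 at day 0 and -1.52, -1.52 and -1.64 at day 2. The fall was 8.49-fold (-3.09 ± 0.51, adjusted p = 0.00529), and day 0 replicate 3 lay well below the other 2 day 0 mutants. Insig1 (chr5:28408493-28408552, mm8) fell 5.67-fold, from 0.96, 1.28 and 2.78 to -0.86, -0.99 and -0.65 (-2.50 ± 0.43, adjusted p = 0.00609). Here day 0 replicate 3 was the highest array, the reverse of its place in Scd1. Lss fell 4.44-fold, from 1.98, 2.75 and 2.59 to 0.11, 0.16 and 0.59 (adjusted p = 0.00724). Elovl6 fell 3.17-fold, from 3.1, 3.23 and 1.64 to 0.84, 1.39 and 0.77, with day 0 replicate 3 close to the day 2 arrays.

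Among the others that fell in mutants, Mvd fell 2.55-fold, Msmo1 2.45-fold, Dhcr7 2.08-fold, Pmvk 1.93-fold and Fdft1 1.75-fold. Msmo1 went from 4.87, 5.21 and 5.14 to 3.64, 3.81 and 3.88, with arrays of a day close together. The second probe of Fdft1, which was dimmer, differed by 0.53, and the call was lost with the mean of both probes (-0.14, adjusted p = 0.773). Srebf1 was 4.78 on all 3 day 0 mutant arrays and 4.31, 4.23 and 4.35 at day 2, a fall of 1.4-fold (-0.49 ± 0.15, adjusted p = 0.0453). With the replicate number as a block Srebf1 no longer passed (adjusted p = 0.0572) and Sc5d did, at -0.93 (adjusted p = 0.0335), while the second probe of Sc5d differed by -0.04 without the block. Members that did not pass in mutants included Fasn, at -0.33, Acacb, at -1.0, Acly, at -0.49, Fads1, at -0.68, Pnpla3, at -2.68, Gpam, at -0.85, and Nsdhl, at -1.10 (adjusted p = 0.0528). Fads2, Elovl5, Acaca and Me1 differed by -0.08, 0.24, 0.11 and 0.62, and Hmgcs1, Sqle, Idi1, Cyp51, Mvk and Srebf2 by -0.56, -0.82, -0.87, -1.03, -0.45 and 0.06.

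**Figure D3:**
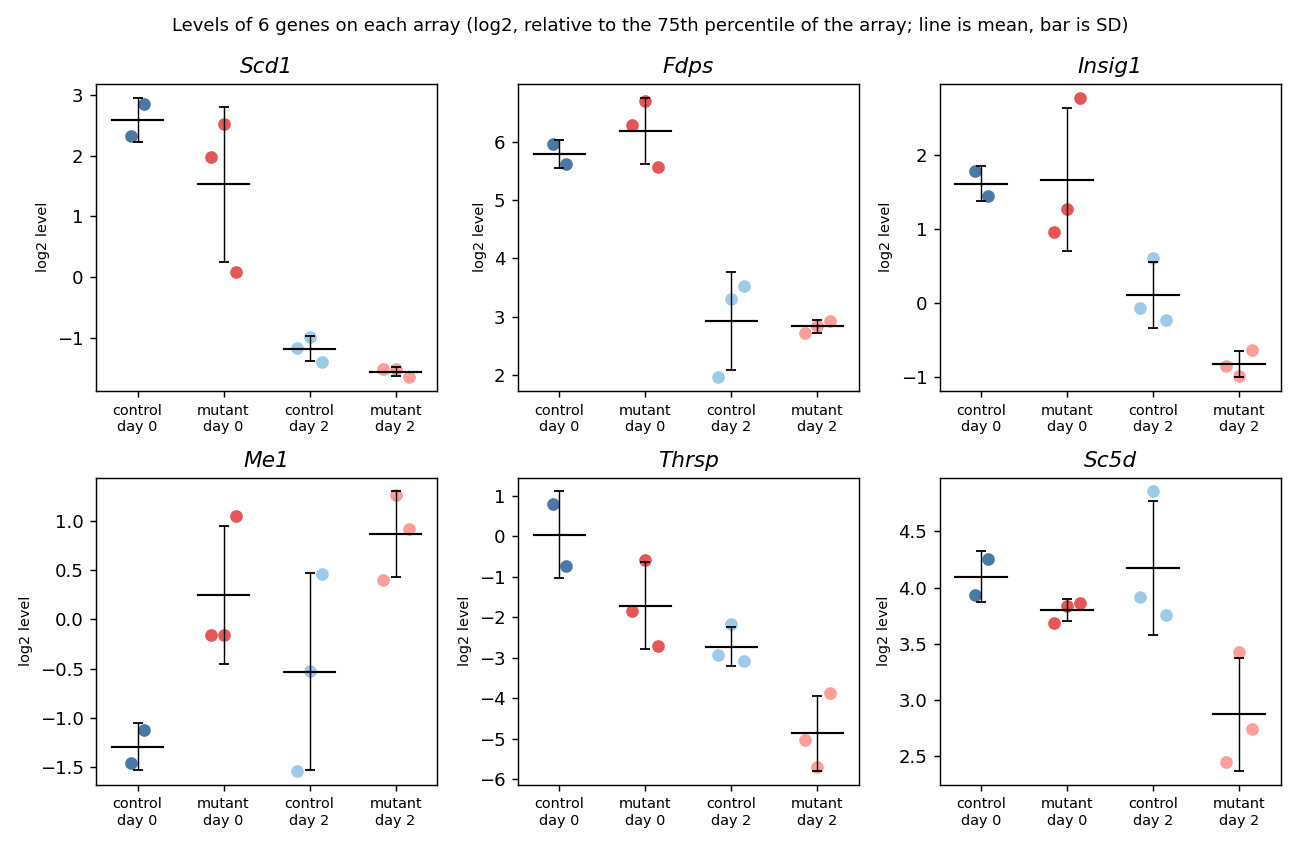
Points are arrays, grouped by genotype and day, on a log2 axis relative to the array's 75th percentile, with the group mean as a line and the SD as a bar. Scd1, Fdps and Insig1, in the upper row, are lower at day 2 in both genotypes, whereas Me1, Thrsp and Sc5d, in the lower row, are the members past the threshold between genotypes.

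The promoters of 4 sterol members that fell in at least 1 genotype are shown because the sterol members moved together between days. They were picked after their values were seen. Each line gives the 250 bases before the start, 5′ to 3′ on the gene's strand, from RefSeq (GRCm38.p6), at chr10:76531355-76531604 (+) for Lss, chr8:122443423-122443672 (-) for Mvd, chr8:64733579-64733828 (-) for Msmo1 and chr5:28071162-28071411 (+) for Insig1. Capitals mark 4 motifs found on either strand: TCACNCCA, a core of SREBP sites, CCAAT, the NF-Y box, GGGCGG, the Sp1 box, and CACGTG, an E-box.
Lss: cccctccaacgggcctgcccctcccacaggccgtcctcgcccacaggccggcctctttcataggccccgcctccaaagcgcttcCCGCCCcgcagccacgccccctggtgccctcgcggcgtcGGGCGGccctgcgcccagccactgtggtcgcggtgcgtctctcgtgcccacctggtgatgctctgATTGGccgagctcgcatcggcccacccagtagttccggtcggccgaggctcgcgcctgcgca
Mvd: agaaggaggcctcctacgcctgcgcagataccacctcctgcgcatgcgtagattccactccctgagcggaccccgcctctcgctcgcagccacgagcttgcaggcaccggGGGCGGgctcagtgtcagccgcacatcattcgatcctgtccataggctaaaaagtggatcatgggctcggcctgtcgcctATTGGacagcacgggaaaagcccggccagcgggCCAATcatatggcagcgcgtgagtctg
Msmo1: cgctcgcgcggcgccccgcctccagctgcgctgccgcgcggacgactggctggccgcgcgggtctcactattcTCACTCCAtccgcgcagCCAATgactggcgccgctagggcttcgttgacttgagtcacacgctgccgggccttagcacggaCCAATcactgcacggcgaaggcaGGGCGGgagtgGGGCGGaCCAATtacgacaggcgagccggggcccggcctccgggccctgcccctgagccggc
Insig1: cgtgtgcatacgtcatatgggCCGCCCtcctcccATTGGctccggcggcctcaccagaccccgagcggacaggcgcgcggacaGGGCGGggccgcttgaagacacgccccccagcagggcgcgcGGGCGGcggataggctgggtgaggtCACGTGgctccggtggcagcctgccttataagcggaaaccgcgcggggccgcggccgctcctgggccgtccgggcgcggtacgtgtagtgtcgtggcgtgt
The SREBP core was found in the Msmo1 line and the E-box in the Insig1 line. CCAAT and GGGCGG, or their complements ATTGG and CCGCCC, were in all 4. In RefSeq windows of 300 bases (250 before and 50 after the start), 25 of the 30 members had at least 1 window. Fads1, Fdft1, Fdps, Scd1 and Sqle were not among them. CCAAT was in 13 of 16 sterol windows (81.2%) and 10 of 16 fatty acid windows (62.5%), beside 37.4% of all 32851 windows. GGGCGG was in 13 of 16 sterol windows and 7 of 16 fatty acid windows (43.8%), beside 35.7% of all. TCACNCCA was in 3 of 16 sterol windows (18.8%), those of Hmgcs1, Msmo1 and Srebf2, and in 1 of 16 fatty acid windows (6.25%), that of Gpam, beside 4.36% of all. CACGTG was in 3 of 16 sterol windows, those of Dhcr7, Insig1 and Sc5d, and 1 of 16 fatty acid windows, that of Elovl5, beside 7.15% of all. Motifs were counted apart and could overlap, genes with several starts gave several windows, and a match describes letters only.

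Of other genes of the arms, 1 of 26 fatty acid genes rose in controls, Mlxipl, the carbohydrate-responsive factor ChREBP, by 1.81-fold. In the same comparison 5 fell, among them Lpin1, a phosphatidate phosphatase, by 17.3-fold, Scd2, the desaturase of immature tissue, by 8.92-fold, and Acss2, an acetyl-CoA synthetase, by 4.23-fold. Of 22 sterol genes tested, 2 fell in controls and none rose, beside 5.71% of all genes that fell and 5.52% that rose. In mutants 3 of 26 fatty acid genes rose and 6 fell, and 3 of 22 sterol genes rose and 5 fell, beside 9.41% of all genes that rose and 11.3% that fell, so the counts of risen genes were near the share of all genes. Lpin1 fell 5.18-fold, Scd2 3.75-fold and Mogat1, a monoacylglycerol acyltransferase, 3.19-fold, while Mlxipl rose 1.87-fold and Elovl2, an elongase of very long polyunsaturated chains, rose 3.06-fold. The medians of these other genes were -0.41 and -0.01 in controls and -0.17 and -0.02 in mutants, for fatty acid and sterol genes in turn.

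**Figure D4:**
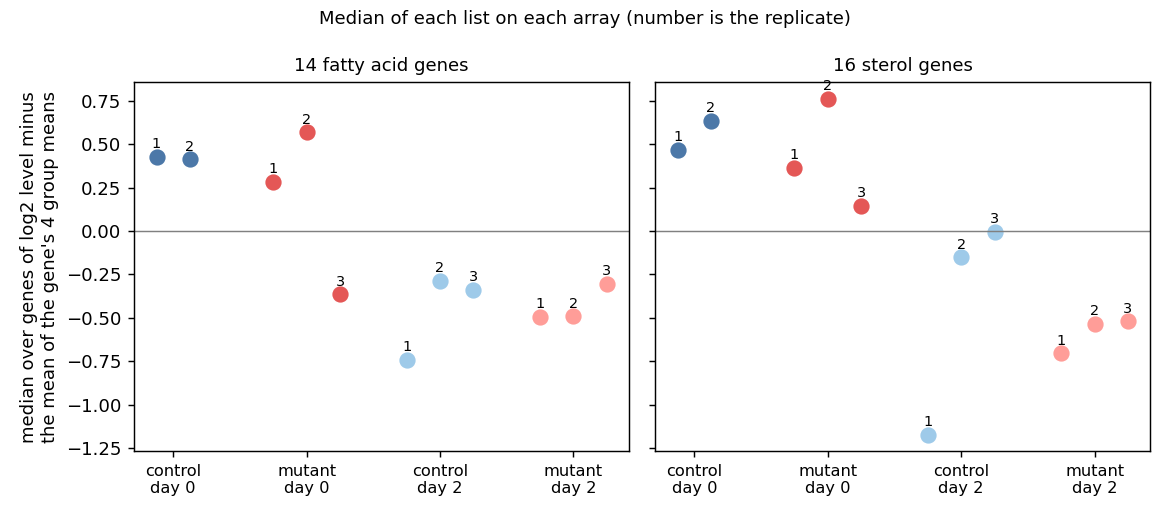
Each point is the median, over the 14 fatty acid genes (left) or the 16 sterol genes (right), of an array's log2 level minus the mean of the gene's 4 group means, with the replicate number beside it. Control day 2 replicate 1 is lowest in both panels, at -0.74 and -1.17, and mutant day 0 replicate 3 is at the level of day 2 arrays in the left panel.

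Arrays of a group differed in how far the arms had moved. Control day 2 replicate 1 was the lowest of its group in 14 of 16 sterol members, with an array median of -1.17 against -0.15 and -0.01 for replicates 2 and 3. Mutant day 2 replicate 1 was the lowest of its group in 13 of 16, at -0.70 against -0.53 and -0.52. Mutant day 0 replicate 3 was the lowest of its group in 10 of 14 fatty acid members, at -0.36 against 0.28 and 0.57. Its sterol median, 0.14, was also the lowest of its group, but the gap to replicate 1, at 0.36, was smaller. On that array the summed granulocyte markers stood at 1012, against 509 and 468 in replicates 1 and 2, stellate markers at 135, against 57.9 and 64.2, megakaryocyte markers at 108, against 48.3 and 32.6, and bile duct markers at 111, against 367 and 191, in linear units of the array's percentile. Its hepatocyte, erythroid and endothelial sums, 4378, 1460 and 18.7, were also the highest of the group. Their part in the low fatty acid values was not tested. The sum of 2 adipocyte markers that were tested, Cidea and Fabp4, was 37.5 to 112 in day 0 mutants and 9.30 to 10.7 in day 2 mutants, and 28.9 to 54.6 and 21.8 to 32.4 in controls, with the highest value, 112, on mutant day 0 replicate 3. Of the other 5 markers in that list, Adipoq was well above background on 1 of 11 arrays and Ucp1 on 0, and Plin1, Cfd and Lep on 5, 2 and 2.

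Within slides, the sterol median between days was -1.79 and -0.79 in controls (slides 1 and 2) and -1.17, -1.25 and -0.67 in mutants (slides 1 to 3). The fatty acid median was -0.91 and -0.90 in controls, and -0.75, -0.83 and -0.07 in mutants, where the last is the slide of mutant day 0 replicate 3. In controls 1 member, Scd1, passed without day 0 control replicate 1 and none without replicate 2, and calls dropped over all genes too, to 1.07% and 0.716% that fell, against 5.71%. The differences moved less, to -1.33 and -1.53 for Fasn and to -2.69 and -3.04 for Fdps. In the same comparison 5 members passed without day 2 control replicate 1, 4 without replicate 2 and 6 without mutant day 2 replicate 1, against 3.44%, 2.26% and 4.03% of all genes that fell. With sex as a covariate 1 passed, against 1.11%. In mutants 7 passed without day 0 replicate 2, and 6 each without day 2 replicate 1 or 3, against 9.05%, 6.52% and 4.82% of all genes that fell. With the replicate block, 8 passed in controls, Dhcr7, Nsdhl and Thrsp being lost and Fdft1 gained.

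Mutants and controls were compared to ask whether Notch activation changed these genes. Over both days, 1 member rose and 1 fell, against 8.82% and 6.96% of all genes, and the other 28 did not pass. Me1 was 2.76-fold higher in mutants and Thrsp 3.84-fold lower, both of the fatty acid arm. The median difference was -0.35 for the 14 fatty acid members and -0.08 for the 16 sterol members, beside -0.05 for all genes. The arrays of mutants lay below those of controls on both days in Srebf1 and Sc5d, 2 of 30 members against 6.93% of all genes, near that share. They lay above in no member, against 7.33%.

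Me1 (chr9:86378398-86378458, mm8) was -1.46 and -1.12 in day 0 controls and -0.16, -0.15 and 1.05 in day 0 mutants. At day 2 it was -1.53, -0.52 and 0.47 in controls and 0.40, 1.27 and 0.92 in mutants. The mutants were the higher group on both days, with overlap of 1 control and 1 mutant array at day 2, and the difference over both days was 1.46 ± 0.38 (adjusted p = 0.0293). Thrsp (chr7:97292244-97292303, mm8) was -1.84, -0.59 and -2.72 in day 0 mutants, against 0.79 and -0.73 in controls, with overlap. At day 2 it was -5.02, -5.71 and -3.87 in mutants, where its probe was dim, below the -2.93, -2.18 and -3.08 of controls. Its difference over both days was -1.94 ± 0.48 (adjusted p = 0.0246), and with the replicate block -1.91 (adjusted p = 0.059), which no longer passed. Me1 lost its call without day 0 control replicate 1 or 2, day 2 control replicate 2, or day 2 mutant replicate 2 or 3 (adjusted p = 0.108, 0.0791, 0.0601, 0.072 and 0.0601), and with sex as a covariate (0.0771). Thrsp lost its call without day 0 control replicate 1, day 2 control replicate 2, or day 2 mutant replicate 1 or 2 (adjusted p = 0.112, 0.0585, 0.0551 and 0.0584), and with sex as a covariate (0.0785). Counts over both days were 4 without control day 2 replicate 1 and without mutant day 0 replicate 3, in which 7.13% and 13.1% of all genes rose and 4.37% and 12.7% fell.

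At day 0 alone, no member passed in either direction by limma, against 1.6% of all genes that rose and 0.716% that fell, and 4 members had an unadjusted p under 0.05. These were Fasn, at -0.95 ± 0.29, Acacb, at -1.40 ± 0.55, and Thrsp, at -1.75 ± 0.72, which were lower in mutants, and Me1, at 1.53 ± 0.56, which was higher. Fasn was 4.27, 4.15 and 3.46 in day 0 mutants, below both controls (adjusted p = 0.149). Acacb was 0.19, -0.29 and -1.83, also below both controls (adjusted p = 0.262). Pnpla3 was -0.19, -0.03 and -0.44 in mutants and -2.17 and -2.80 in controls (2.26 ± 1.05, adjusted p = 0.352). In all, 6 of 30 members were lower in day 0 mutants without overlap, against 2376 of 15789 genes. Another 3 were higher without overlap, against 2661 genes. Mutant day 0 replicate 3 was the lowest array in Fasn, Acacb and Thrsp. The sterol members lay close to 0 at day 0, with a median of -0.08, while the fatty acid median was -0.43 and that of all genes -0.01. The 95% interval of the difference for Fdps ran from -0.62 to 1.41 and that for Lss from -0.84 to 1.09. Both reached past 2-fold on the higher side, so a difference of that size lay within them.

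At day 2, Sc5d (chr9:42005769-42005828, mm8) was the member that passed, lower in mutants, and none rose by limma (Me1 was higher at an unadjusted p under 0.05), against 6.6% of all genes that fell and 9.68% that rose. Sc5d was 2.44, 3.43 and 2.74 in mutants and 3.91, 4.86 and 3.75 in controls, without overlap, and lower on each of the 3 slides, by -1.47, -1.43 and -1.01. The difference was 2.47-fold (-1.30 ± 0.32, adjusted p = 0.0235). At day 0 it was 3.69, 3.84 and 3.86 in mutants and 3.93 and 4.25 in controls (-0.30 ± 0.36, adjusted p = 0.732). A second probe of Sc5d, above background on 11 of 11 arrays, differed between genotypes by -0.79 at day 0 and -0.73 at day 2, so the lower value at day 2 than at day 0 was seen on the probe read and not on this one. With the mean of both probes Sc5d still passed at day 2 (-1.02, adjusted p = 0.0308), and also passed over both days (-0.78, adjusted p = 0.0282). Over both days, on the probe read, its difference of -0.80 ± 0.24 did not pass (adjusted p = 0.051), but did with the replicate block (-0.76, adjusted p = 0.0306). Without day 2 control replicate 2, or day 2 mutant replicate 1 or 3, the day 2 difference of Sc5d no longer passed (adjusted p = 0.0613, 0.0827 and 0.0747).

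Besides Sc5d, 6 members had all 3 day 2 mutant arrays below all 3 controls. With Scd1, Fads1, Fads2, Srebf1, Thrsp and Insig1 these make 7 of 30 members, against 24.7% of all genes, so the count was near the share of all genes. No member was higher without overlap, against 20.8%. Fads1 was 0.98, 0.71 and 1.01 in mutants and 1.59, 1.57 and 2.01 in controls (-0.82 ± 0.33, adjusted p = 0.128). Fads2 was 1.88, 1.48 and 1.97 against 2.47, 2.28 and 3.18 (-0.86 ± 0.34, adjusted p = 0.116). These desaturases are neighbours on chromosome 19 and act in the same chain of reactions. Insig1 was -0.86, -0.99 and -0.65 against -0.07, 0.61 and -0.23 (-0.93 ± 0.43, adjusted p = 0.174). Thrsp differed by -2.14 ± 0.64 (adjusted p = 0.0503) and Srebf1 by -0.46 ± 0.15 (adjusted p = 0.061). Me1, at 1.39 ± 0.50, did not pass (adjusted p = 0.0919), and did with the replicate block (adjusted p = 0.0306), which gave 2 members, Sc5d and Me1. Without mutant day 0 replicate 3, which enters the estimate of the spread, 7 members passed at day 2: Fads1, Fads2, Insig1, Me1, Sc5d, Srebf1 and Thrsp. Calls rose over all genes in that refit as well, to 15.2% that fell and 14.9% that rose, so 7 of 30 members was near the share of all genes. Without control day 2 replicate 1 there were 3, Hmgcs1, Sc5d and Srebf1, and without control day 2 replicate 3 or mutant day 0 replicate 2 there were 2.

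Several sterol members differed between genotypes at day 2 by less than 1 SE. Fdps differed by -0.10 ± 0.40, Lss by -0.10 ± 0.38, Msmo1 by -0.08 ± 0.37, Sqle by 0.02 ± 0.37 and Dhcr7 by 0.03 ± 0.31. The 95% interval of the difference for Fdps was -1.01 to 0.81, so a difference of about 2-fold in either direction lay within or close to it. Hmgcs1 was lower in mutants, with overlap (-0.67 ± 0.25, adjusted p = 0.104). Fasn and Elovl6 differed by 0.15 ± 0.26 and 0.08 ± 0.44. The sterol median at day 2 was -0.09, the same as that of all genes to 2 decimals, and the fatty acid median 0.08. Within slides the fatty acid median was -0.18, -0.21 and -0.18, below 0 on all 3 and opposite in sign to the median of the differences between group means. The sterol median moved to -0.53 without control day 2 replicate 1, and within slides it was 0.41, -0.38 and -0.50, the first being the slide of that array.

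**Figure D5:**
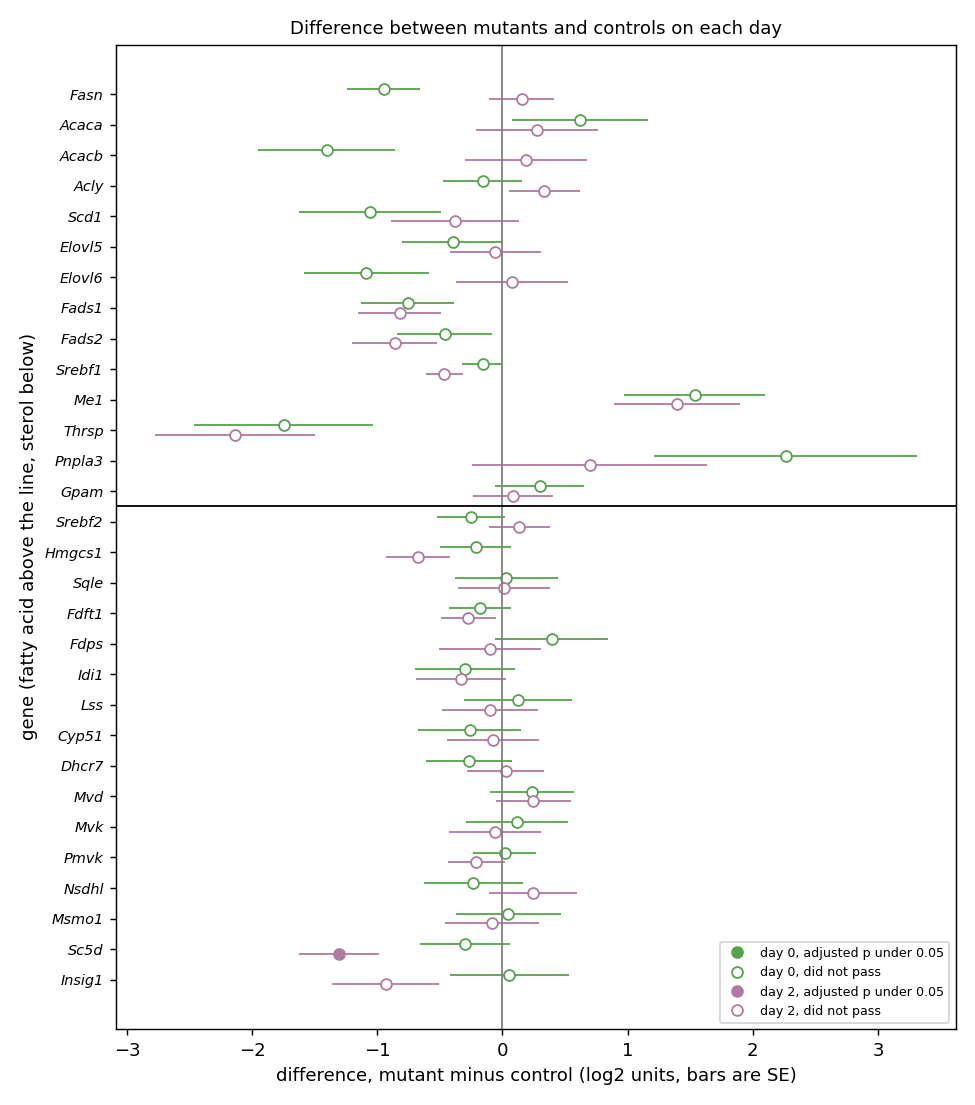
The difference between mutants and controls is plotted for each gene on a log2 axis, in green for day 0 and purple for day 2, with bars of 1 SE and filled points for adjusted p under 0.05. The filled point is Sc5d at day 2, at -1.30, and most sterol genes lie near 0 on both days.

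The difference between genotypes was itself compared between days, which is the same as comparing the postnatal change of mutants with that of controls. No member passed by limma, against 0.234% of all genes with a higher and 0.038% with a lower difference at day 2, and 1 member had an unadjusted p under 0.05. That member was Fasn, whose difference moved from -0.95 at day 0 to 0.15 at day 2, a shift of 1.10 ± 0.39 (adjusted p = 0.249). Acacb shifted by 1.59 ± 0.73, Elovl6 by 1.16 ± 0.67, Sc5d by -1.01 ± 0.48 (0.06 on its second probe) and Insig1 by -0.99 ± 0.64, none of which passed. The falls between days that passed in controls and not in mutants, such as those of Fasn and Acacb, or in mutants and not in controls, such as that of Insig1, were therefore not shown to differ by genotype. The median shift was -0.10 for fatty acid members and -0.11 for sterol members, beside -0.04 for all genes.

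Of the other genes of the pathway over both days, 3 of 26 fatty acid genes rose and 7 fell, and 2 of 22 sterol genes fell, beside 8.82% of all genes that rose and 6.96% that fell. The 3 that rose and the 2 sterol genes that fell were thus near the share of all genes. At day 0 the counts were 1 risen and 3 fallen fatty acid genes and 1 fallen sterol gene, beside 1.6% risen and 0.716% fallen of all genes, and at day 2 they were 3, 4 and 3, beside 9.68% and 6.6%. Scap, the escort of SREBP, was 4.5, 4.63, 4.5, 4.63 and 4.35 in the controls and 3.49, 3.73, 3.65, 3.65, 3.52 and 3.77 in the mutants. All 6 mutant arrays were below all 5 controls, by 1.86-fold (-0.89 ± 0.10, adjusted p = 0.000475). Lbr, a nuclear membrane protein with sterol reductase activity, was 1.47-fold lower. Fads3, a relative of Fads1 and Fads2, was 3.3-fold higher (adjusted p = 0.000562), and Scd2 was 3.28-fold higher at day 2. Elovl2 was 2.55-fold lower, and Pklr, liver pyruvate kinase, was 2.03-fold lower. Srebf1 and Srebf2, the partners of Scap, did not pass, at -0.31 and -0.06.

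In whole liver RNA, fewer cells of a type and less RNA per cell cannot be told apart. At day 2, 6.6% of all genes fell in mutants and 9.68% rose, which stand beside the day 2 counts below. Of 13 hepatocyte markers tested of 15 listed, 8 fell in mutants at day 2 and none rose. Their summed levels were 2424 to 2666 in mutants and 3408 to 4479 in controls. Of 11 bile duct markers, 10 rose, with sums of 254 to 299 against 23.6 to 29.5. Of 12 erythroid markers tested of 14, 8 fell, with sums of 429 to 619 against 924 to 1172. Of the other lists at day 2, 3 of 10 macrophage markers, 1 of 6 endothelial and 1 of 2 adipocyte markers fell, 1 of 7 stellate markers rose, and none of 8 granulocyte or 6 megakaryocyte markers passed by limma. All 6 megakaryocyte markers were nonetheless lower in mutants without overlap (median -1.07), against 24.7% of all genes. Their sums were 42.2 to 47.0 in mutants and 81.0 to 90.2 in controls. Granulocyte sums did not overlap either, at 327 to 353 in mutants and 410 to 487 in controls. At day 0 the sums overlapped for hepatocyte markers, at 3457 to 4378 in mutants and 4020 to 4513 in controls, and for erythroid markers. Even so, 3 of 13 hepatocyte markers fell at day 0, against 0.716% of all genes. Also at day 0, 6 of 11 bile duct markers rose, against 1.6% of all genes. Their sums were 111 to 367 in mutants and 40.8 to 42.6 in controls. No marker of the other lists passed at day 0. Lower in mutants without overlap were 8 of 13 hepatocyte, 6 of 12 erythroid and 7 of 10 macrophage markers, against 2376 of 15789 genes. None of these 3 lists had a marker higher without overlap. Between days in controls the hepatocyte sums overlapped too, at 4020 to 4513 and 3408 to 4479, and 1 of 13 rose and 1 fell. Other summed markers were lower at day 2 in controls without overlap. Bile duct markers went from 40.8 to 42.6 at day 0 down to 23.6 to 29.5 at day 2, and 3 of 11 fell. Granulocyte markers went from 683 to 932 down to 410 to 487, and 3 of 8 fell. Stellate markers went from 80.3 to 82.7 down to 47.9 to 53.0 with none of 7 past the threshold. Endothelial markers went from 13.56 to 14.02 down to 8.48 to 10.005, and 1 of 6 fell. Also in controls, 1 of 10 macrophage and 1 of 2 adipocyte markers fell, and no erythroid or megakaryocyte marker passed. Beside these counts, 5.71% of all genes fell and 5.52% rose. Between days in mutants 5 of 13 hepatocyte markers fell and 1 rose, 5 of 12 erythroid markers fell, and 5 of 11 duct markers rose. Of the other lists, 4 of 10 macrophage, 3 of 8 granulocyte, 2 of 6 endothelial and 2 of 2 adipocyte markers fell. No megakaryocyte or stellate marker passed. Beside these counts, 11.3% of all genes fell and 9.41% rose. The part of these cell types in the differences of Me1, Thrsp, Sc5d and the members that fell in controls or mutants was not tested.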

How the data were processed

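Liver RNA of 11 samples from newborn mice was amplified, labelled with Cy3 and hybridised to 1-colour Agilent whole mouse genome arrays, per the labels. The deposited scanner files hold spot intensity, background-subtracted and detrended by Feature Extraction 9.5.3.1 per the file headers, which place probes on mm8. A further deposited table holds log2 values that the authors made with RMA, per the submitters' processing notes, with other settings not given in the sources used here. It was used as an alternative.

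From these, log2 of the processed signal minus each array's 75th percentile was taken, spots of a probe were averaged, and a probe was kept if all arrays of some group measured it well above background. Each gene was read from its tested probe with the highest mean, so a gene's value depends on that probe. Names came from accessions, symbols and synonyms through RefSeq. Members of the 2 arms, the other pathway genes and the marker lists were chosen with earlier results of these data known. All 30 members are accounted for, and at most 6 other pathway genes with the smallest adjusted p are named per comparison. The values of some of these other genes are not reported here.

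limma 3.58.1 (R 4.3.3) fitted 1 mean per group over all 11 arrays, with Benjamini-Hochberg adjustment over 15789 genes and a threshold of 0.05. The procedure was tested on simulated data, for the comparison over both days only. The simulated arrays varied independently, unlike the day 2 arrays described next. Same-numbered arrays of day 2 controls and mutants deviated together (correlation of deviations 0.228 to 0.279, against -0.21 to -0.0523 for different numbers). Deviations within a group cancel out, so the negative values follow from the positive ones and are no separate evidence. The number is also the slide. The main fit did not use this pairing, so its p-values are unpaired. As an alternative, the replicate number was fitted as a block over all 11 arrays. Other alternatives were normexp background correction (offset 50), quantile normalization, the deposited log2 table, no filter or a stricter filter on dim probes, the mean of a gene's probes, sex as a covariate, and leaving out each array. The number of arrays limits the precision.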

Additional observations from a re-analysis of the deposited data

How the results depend on the processing

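Each result was recomputed under 19 alternatives. The 18 list results (counts and medians) stayed within 1.5 times or 1 pooled SD of the main value in 311 of 342 recomputations. Of the counts, those at day 0 and for the shift between days were 0 throughout. The others stayed in 12 of 19 alternatives between days in controls and 16 in mutants. Between genotypes they stayed in 11 at day 2 and 10 over both days. The pooled SDs, 0.29 and 0.39 for fatty acid and sterol members, exceeded most medians between genotypes. A median could therefore change sign and count as unchanged. No called member changed direction, although 123 of 475 calls of single members were lost. Between days in controls, 6 members passed with no filter on dim probes and 1 with sex as a covariate, against 10. In these refits 3% and 1.11% of all genes fell, against 5.71% in the main fit. At day 2, 2 members passed with the stricter filter (Sc5d and Thrsp) and 2 with the replicate block, against 1. In these refits 7.87% and 6.16% of all genes fell, and 9.75% and 9.35% rose. Over both days, 4 passed with normexp, where 7.69% of all genes rose and 7.18% fell, against 2 in the main fit. With sex as a covariate 1 passed over both days, where 4.57% of all genes rose and 2.22% fell. That 1 member was neither Me1 nor Thrsp, which both lost their call with sex as a covariate. With sex as a covariate the median shift of the fatty acid members between days was 0.39, against -0.10. The cause was not tested. Leaving out 1 array at a time gave 0 to 13 members between days in controls and 6 to 17 in mutants, 0 to 7 between genotypes at day 2 and 0 to 4 over both days, and 0 at day 0 and for the shift between days. The sterol median ran from -1.27 to -0.62 between days in controls and from -0.53 to 0.22 between genotypes at day 2, and the fatty acid median of the shift from -0.17 to 0.22. With a lone day 0 control, that array is assumed to vary like the other groups. The replicate block left 8 members in controls, 12 in mutants, 2 at day 2 and 2 over both days. It changed no call of a member beside those named with the results. With the block, 4.07% of all genes fell between days in controls and 11.1% in mutants, and over both days 8.17% rose and 5.49% fell. Only 2 day 0 controls, which share their sex, limit the comparisons with that group.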
